A study of Mus musculus with 6 samples.

Results

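The 10 genes described here encode the NF-κB transcription factors and the proteins that restrain them in mouse T cells. They were chosen by symbol and matched to the count tables by Ensembl gene identifier. The genes are Nfkb1, Nfkb2, Rel, Rela, Relb, Nfkbia, Nfkbib, Nfkbie, Nfkbiz and Tnfaip3, 10 of 52550 genes in the gene table, with 41 of 131146 transcripts in the transcript table. The study measured mRNA by sequencing in CD3+ T cells magnetically isolated from the spleens of wild-type mice. Every culture was activated for 24 h with antibodies to CD3, a part of the T cell receptor (TCR) complex, and to CD28, a co-stimulatory receptor. The 3 TCR alone samples received nothing else, and the 3 TCR+DMGV samples also received DMGV at 100 ng/ml. The labels name the agent DMGV, whereas the study describes the same experiment with LNY1, also at 100 ng/ml. LNY1 is an inhibitory factor purified from fibroblast conditioned medium. The study equates it with the dimethylarginines ADMA and SDMA, which it describes as metabolized to DMGV. The identity of the agent as DMGV therefore rests on the labels. The study calls the samples independent biological samples, but the labels tie none of them to an animal, so the p-values measure the spread between these samples. Both groups were activated, and induction of the genes by the TCR cannot be read from them.

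NF-κB proteins bind DNA as dimers. RELA, RELB and REL carry a transactivation domain, while NFKB1 and NFKB2 are made as precursors whose processed forms lack one. In a resting cell the inhibitors encoded by Nfkbia, Nfkbib and Nfkbie hold dimers in the cytoplasm until the IκB kinase complex marks them for degradation. The TCR reaches that kinase through PKC-theta, BCL10 and MALT1. Nfkbiz encodes an atypical, nuclear IκB protein, and Tnfaip3 encodes A20, a ubiquitin-editing enzyme that dampens the pathway. Nfkbia and Tnfaip3 are well-known targets of NF-κB, so the pathway makes its own brakes.

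The stretches just upstream of the start sites of 4 inhibitor and subunit genes are shown because Tnfaip3, the member whose level spread most between samples, has a pair of start sites that differ in sequence, with Nfkbia, Nfkbie and Rel beside it as inhibitor and subunit genes that hold a match. Capitals mark matches to the κB consensus, GGG, then A or G, any 2 bases, 2 pyrimidines and CC, read on both strands. All sequences are RefSeq promoter sequence, GRCm38.p6, written 5′ to 3′ on the strand of the gene, and no annotated exon overlaps them. The Tnfaip3 stretches lie at chr10:19015411-19015547 (distal start) and chr10:19011964-19012100 (proximal start), the Nfkbia stretch at chr12:55492648-55492747 and the Rel stretch at chr11:23770971-23771073, all on the minus strand. The Nfkbie stretch lies at chr17:45555582-45555699 on the plus strand.
Tnfaip3 distal start: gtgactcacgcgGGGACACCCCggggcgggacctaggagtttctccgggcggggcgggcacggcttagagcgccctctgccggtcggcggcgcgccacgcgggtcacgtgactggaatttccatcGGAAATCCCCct
Tnfaip3 proximal start: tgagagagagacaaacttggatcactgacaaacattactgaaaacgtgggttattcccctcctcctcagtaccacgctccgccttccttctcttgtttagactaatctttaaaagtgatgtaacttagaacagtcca
Nfkbia: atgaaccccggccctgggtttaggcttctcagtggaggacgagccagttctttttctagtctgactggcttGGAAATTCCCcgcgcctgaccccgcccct
Rel: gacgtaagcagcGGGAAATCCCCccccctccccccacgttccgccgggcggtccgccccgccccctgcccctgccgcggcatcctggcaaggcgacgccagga
Nfkbie: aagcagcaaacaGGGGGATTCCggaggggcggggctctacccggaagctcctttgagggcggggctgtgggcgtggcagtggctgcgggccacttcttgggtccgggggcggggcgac

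The distal Tnfaip3 window held matches that began 125 and 12 bases before the start, and the proximal window held none of these letters. In Nfkbia the match began 29 bases before the start, in Nfkbie 106 bases before it, and in Rel 92 bases before it, where a second match overlapped it by all but 1 base. Of the 10 genes, 7 had a promoter window of 300 bases, and 5 of those 7 held a match (Nfkb2, Rel, Nfkbia, Nfkbie and Tnfaip3), while Rela and Nfkbib held none. Over all 27025 genes with a window the share was 9.55%, and over all 32851 windows it was 8.46%. A match is a string of letters and not a measured binding site.

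Sequencing depth was even, with 37758725 to 43718867 counts per sample. The first principal component, which took 32.2% of the variance, set TCR alone replicate 3 and TCR+DMGV replicate 1 apart (scores of 42.1 and 42.9) from the other 4 samples (-34.9 to -10.5), so that 1 sample of each group stood apart. All 13 T cell markers were detected, with summed levels of 3982 to 4267 CPM (counts scaled to library size, TMM-normalized) in TCR alone and 4275 to 4503 CPM in TCR+DMGV. Myeloid markers summed to 34.0 to 39.8 CPM and 27.2 to 29.8 CPM, with Cd14 and Cd163 at 0. Of that sum Cebpb, a gene not confined to myeloid cells, gave 25.0 to 29.5 CPM and 18.1 to 19.2 CPM, and without it every TCR+DMGV sample lay inside the TCR alone range of 8.99 to 12.1 CPM. B cell markers summed to 11.2 to 14.0 CPM and 12.8 to 13.5 CPM. NK cell markers summed to 76.5 to 85.9 CPM and 81.5 to 90.4 CPM. Of the NK cell sum Eomes gave 53.2 to 63.2 CPM and 59.9 to 71.9 CPM. Over all samples Klrk1 gave 9.32 to 19.8 CPM and Gzma 4.87 to 7.15 CPM. Ncr1, Klrb1c, Klra8 and Klre1 each stood at no more than 1.19 CPM in any sample. Erythroid markers summed to 4.01 to 5.37 CPM and 2.36 to 3.88 CPM, and neutrophil markers to at most 0.105 CPM. Dendritic cell markers, of which Clec9a and Siglech were at 0, summed to 500.0 to 553 CPM and 547 to 577 CPM. Most of that sum was Ccr7, which T cells also express, at 485 to 532 CPM and 529 to 558 CPM. The T cell and erythroid sums and Cebpb did not overlap between the groups, and their part in the results below was not tested. In bulk RNA, fewer cells of a type and less RNA per cell cannot be told apart. By edgeR's quasi-likelihood test, 2 of 14786 genes tested (0.0135%) passed an adjusted p of 0.05.

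The levels of the genes were compared per length on a pair of scales, because the deposited gene FPKM (fragments per length and depth) and the summed transcript FPKM gave different orders. The tables divide Nfkb1 differently, since its exons together cover 12061 bases while its longest transcript in the table has 4149. Over the 6 samples Nfkb1 averaged 66.2 ± 2.56 as gene FPKM and 289 ± 10.9 as summed transcript FPKM (SD, n = 6), a ratio of 4.36. The ratio was 1.90 for Tnfaip3, 1.82 for Relb, 1.71 for Nfkbib, 1.42 for Nfkbiz and 1.00 to 1.06 for the other 5 genes.

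On the gene FPKM scale, Nfkbia stood at 78.3 ± 6.25, Nfkb2 at 78.0 ± 2.78, Nfkb1 at 66.2 ± 2.56, Nfkbib at 64.2 ± 5.03 and Rela at 56.5 ± 3.85, followed by Rel at 20.2 ± 1.92 and Relb at 16.3 (range 15.0 to 19.1). Nfkbie (11.4 ± 0.66), Tnfaip3 (8.05 ± 2.10) and Nfkbiz (2.46 ± 0.24) were lowest. Nfkbia and Nfkb2 overlapped on this scale, as did Nfkb1 and Nfkbib, Nfkbib and Rela, and Rel and Relb, while the other neighbours were apart. On the summed transcript FPKM scale Nfkb1 was highest and apart from Nfkbib, at 110 ± 10.3, which was apart from Nfkb2, at 83.0 ± 2.94. Nfkbia (80.9 ± 6.20) overlapped Nfkb2, Rela (56.5 ± 3.85), Relb (29.6 ± 2.59) and Rel (20.2 ± 1.92) were apart from their upper neighbours, and Tnfaip3 (15.3 ± 3.31) overlapped both Rel and Nfkbie (11.4 ± 0.66). Nfkbiz (3.49 ± 0.42) was lowest on both scales. The summed level of Nfkbia, Nfkbib and Nfkbie was 0.591 to 0.694 times that of the 5 subunits in gene FPKM and 0.387 to 0.467 times in summed transcript FPKM, and on both scales the TCR+DMGV samples lay inside the TCR alone range.

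No member passed the test between TCR+DMGV and TCR alone. By edgeR, 0 of 10 had an adjusted p under 0.05, where the share of all genes was 0.0135%, and 0 of 10 had an unadjusted p under 0.05, where it was 3.19%. DESeq2 also called 0 of 10. The edgeR adjusted p was 0.999 for each member. The fold change was above 1 in 8 of 10 members, and their median log2 fold change was 0.07, against 50.6% of all genes and a median of 0.0024. Groups did not overlap for 1 of 10 members (Nfkb2, higher in TCR+DMGV), and for 8.86% of all genes. Of all genes, 4.92% were higher without overlap and 3.94% lower, and the members numbered 1 and 0.

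**Figure D1:**
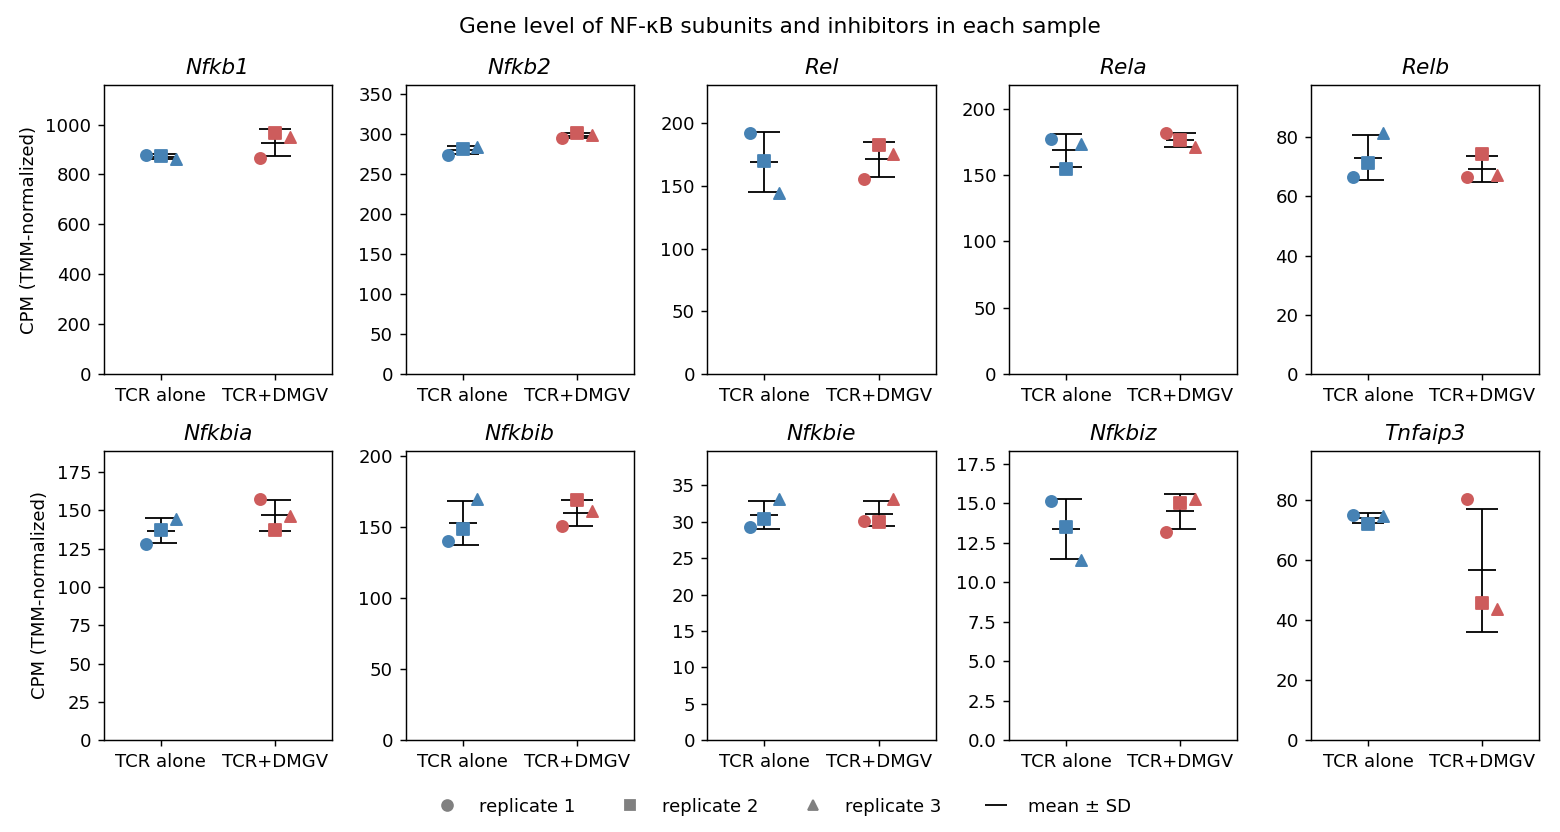
Gene level of each member in CPM (TMM-normalized, linear axis from 0) in each of 3 TCR alone (blue) and 3 TCR+DMGV (red) samples, with replicates by marker shape and the mean ± SD in black. Nfkb2 is the gene whose groups do not overlap, and Tnfaip3 in TCR+DMGV replicates 2 and 3 (45.8 and 43.8 CPM) lies below the other 4 samples.

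Among the subunits, Nfkb1, which encodes the precursor of p50, measured 880, 873 and 861 CPM in TCR alone and 866, 966 and 949 CPM in TCR+DMGV replicates 1 to 3. TCR+DMGV replicate 1 lay inside the TCR alone range and the other two above it. The log2 fold change was 0.09 (SE 0.07, 95% interval -0.07 to 0.25, edgeR unadjusted p = 0.232). Nfkb2, the precursor of p52 and the hallmark of the noncanonical arm, measured 274, 281 and 283 CPM in TCR alone and 294, 301 and 298 CPM in TCR+DMGV. Every TCR+DMGV sample was above every TCR alone sample, by a small margin. The log2 fold change was 0.09 (SE 0.06, 95% interval -0.05 to 0.24, edgeR unadjusted p = 0.177), and the exact two-sided permutation p of 0.1 was the smallest that 3 samples against 3 can give.

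Rel, which encodes c-Rel, the subunit most tied to lymphocyte activation, measured 192, 170 and 144 CPM in TCR alone and 155, 183 and 175 CPM in TCR+DMGV. Its lowest values fell in TCR alone replicate 3 and TCR+DMGV replicate 1, the samples that stood apart, and the groups overlapped. Its log2 fold change was 0.02 (SE 0.12, 95% interval -0.26 to 0.30), and leaving out samples turned its sign. Rela, the main transactivating subunit of the canonical arm, measured 177, 155 and 173 CPM in TCR alone and 182, 176 and 171 CPM in TCR+DMGV. The groups overlapped, with a log2 fold change of 0.06 (SE 0.08, 95% interval -0.12 to 0.25). Relb, the partner of p52, measured 66.4, 71.2 and 81.3 CPM in TCR alone and 66.5, 74.4 and 67.2 CPM in TCR+DMGV. Only TCR alone replicate 3 stood above the rest, and the log2 fold change of -0.07 (SE 0.10, 95% interval -0.32 to 0.17) became 0.02 without it.

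Among the cytoplasmic inhibitors, Nfkbia, which encodes IκBα, measured 128, 137 and 144 CPM in TCR alone and 157, 137 and 146 CPM in TCR+DMGV. The groups overlapped, and the log2 fold change was 0.10 (SE 0.09, 95% interval -0.10 to 0.30). Nfkbib, which encodes IκBβ, measured 140, 149 and 170 CPM in TCR alone and 151, 169 and 161 CPM in TCR+DMGV, a log2 fold change of 0.07 (SE 0.09, 95% interval -0.16 to 0.29). All TCR+DMGV samples lay inside the TCR alone range. Nfkbib overlaps Sirt2 (2152 to 2851 counts per sample) and Nfkb2 overlaps Psd (345 to 499 counts) on the opposite strand, and whether the counting used strand is not stated in the sources used here. Nfkbie, which encodes IκBε, measured 29.3, 30.4 and 33.1 CPM in TCR alone and 30.2, 30.0 and 33.1 CPM in TCR+DMGV. The groups covered nearly the same range, with a log2 fold change of 0.01 (SE 0.10, 95% interval -0.22 to 0.23) whose sign turned on the FPKM scale.

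Nfkbiz, the least abundant member, measured 15.2, 13.5 and 11.4 CPM in TCR alone and 13.2, 15.0 and 15.3 CPM in TCR+DMGV. As for Rel, TCR alone replicate 3 and TCR+DMGV replicate 1 were lowest, and the groups overlapped. Its log2 fold change was 0.12 (SE 0.14, 95% interval -0.22 to 0.45).

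**Figure D2:**
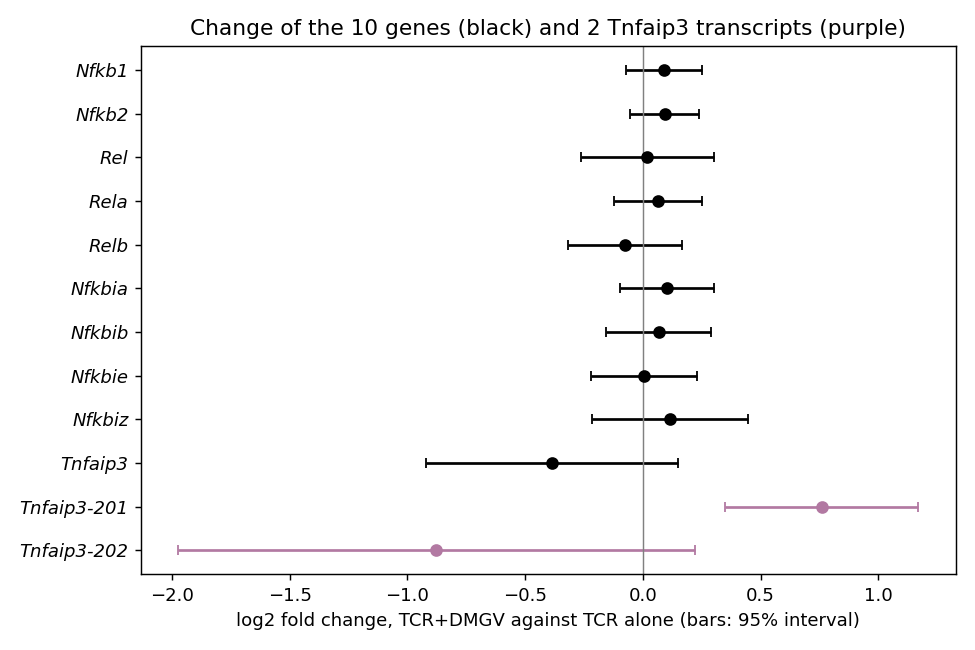
Log2 fold change of TCR+DMGV against TCR alone for the 10 genes (black) and for Tnfaip3-201 and Tnfaip3-202 (purple), with 95% intervals from edgeR. All 10 gene intervals include 0, the widest being that of Tnfaip3 (-0.92 to 0.15).

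Tnfaip3 was the member whose level varied most. It measured 75.1, 72.0 and 74.7 CPM in TCR alone and 80.3, 45.8 and 43.8 CPM in TCR+DMGV. The TCR alone samples were nearly level, while TCR+DMGV replicate 1 was the highest of all 6 samples and replicates 2 and 3 were the lowest. The log2 fold change was -0.38 (SE 0.23, 95% interval -0.92 to 0.15, edgeR unadjusted p = 0.134). Its SD of log2 CPM over the 6 samples was 0.39, at percentile 73.5 of all tested genes, whereas the other members lay between percentiles 2.16 and 38.8. Without TCR+DMGV replicate 1 the log2 fold change was -0.73, and without both samples that stood apart it was -0.71 (edgeR adjusted p = 0.161, the lowest of any member in any setting). The genes whose pattern over the 6 samples was most like that of Tnfaip3 were Emilin2, Fes and Rps6ka2, with root mean square differences of 0.0736, 0.0816 and 0.0915 on the log2 scale. By the same measure Rel was nearest to Anp32b (0.0249), Srsf11 (0.0305) and Luc7l2 (0.0314), and Nfkbiz to Abcd3 (0.0263), Luc7l2 (0.0376) and Mmachc (0.0380).

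Its transcripts divided by start site. Tnfaip3-201 starts at the distal site (chr10, base 19015410, minus strand, GRCm38), with a noncoding first exon, and Tnfaip3-202 starts at the proximal site (base 19011963). They share every coding exon and the same 775 codons and differ at their 5′ ends and by 3 bases at the 3′ end, so their division rests mainly on reads at the first exons. The pair was singled out after its values were seen.

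Tnfaip3-201 measured 11.2, 10.9 and 11.9 CPM in TCR alone and 20.6, 17.9 and 19.0 CPM in TCR+DMGV. All TCR+DMGV samples were above all TCR alone samples, replicate 1 among them. The log2 fold change was 0.76 (SE 0.17, edgeR unadjusted p = 0.0043, adjusted p = 0.726), which did not pass the test, and it was 0.69 to 0.79 with any 1 sample left out. Tnfaip3-202 measured 60.4, 58.5 and 61.8 CPM in TCR alone and 57.1, 20.8 and 20.4 CPM in TCR+DMGV. TCR+DMGV replicate 1 lay just under the TCR alone samples and replicates 2 and 3 far under them. Its log2 fold change was -0.88 (SE 0.44, edgeR adjusted p = 1.00), and -1.56 without TCR+DMGV replicate 1. In FPKM, Tnfaip3-202 stood at 12.4 ± 0.57 in TCR alone and 6.70 ± 4.43 in TCR+DMGV (SD, n = 3, exact two-sided permutation p = 0.2), and the groups overlapped.

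As a share of all Tnfaip3 counts, Tnfaip3-201 took 14.9%, 15.0% and 15.7% in TCR alone and 25.4%, 38.9% and 43.5% in TCR+DMGV. Tnfaip3-202 took 80.6%, 80.8% and 81.5% in TCR alone and 70.2%, 45.3% and 46.7% in TCR+DMGV. Neither share overlapped between the groups, and each gave an exact two-sided permutation p of 0.1, the smallest possible here. The shares are parts of the same total, so they are not separate observations. Tnfaip3 had an unadjusted p of 0.346 by edgeR's test of uneven change among the transcripts of a gene, and did not pass. The share of Tnfaip3-201 averaged 15.2% ± 0.44 in TCR alone and 35.9% ± 9.40 in TCR+DMGV (SD, n = 3). Tnfaip3-205, a transcript with a retained intron, had a log2 fold change of 1.02 (SE 0.50), and its groups overlapped.

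**Figure D3:**
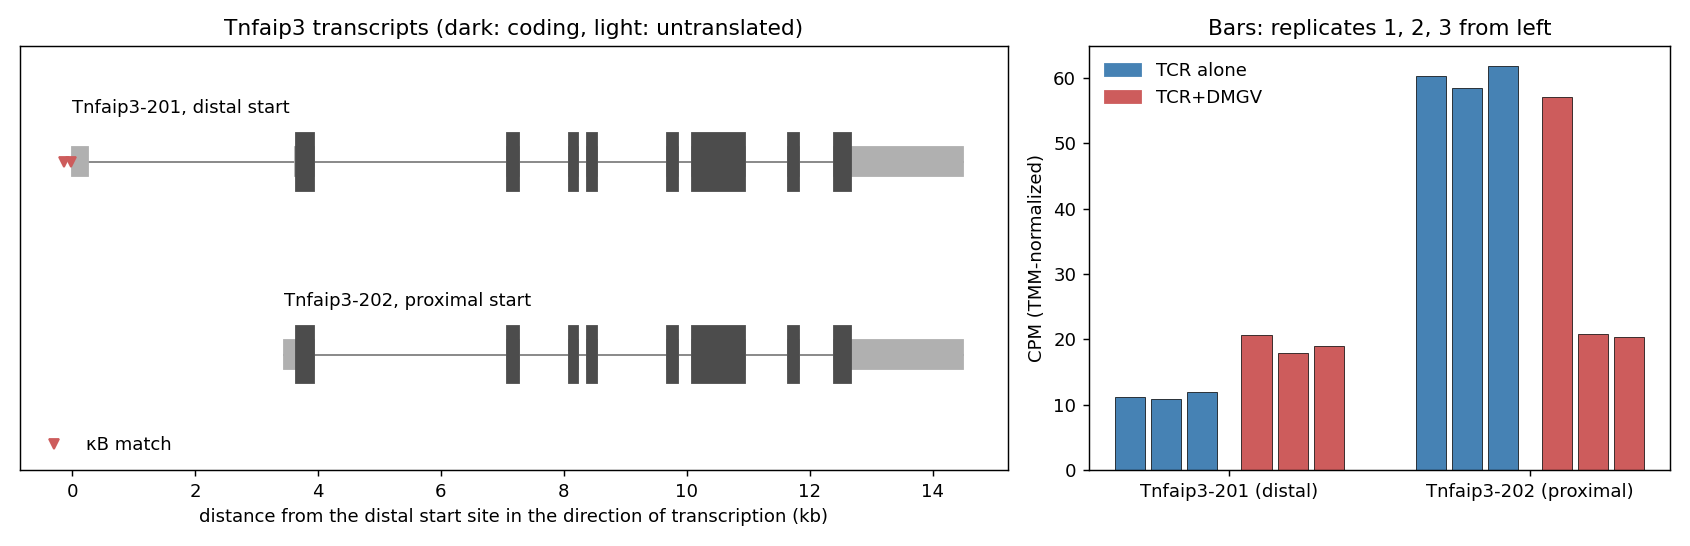
Left, exons of Tnfaip3-201 and Tnfaip3-202 by distance in kb from the distal start site, to scale, with κB matches as red triangles upstream of the distal start. Right, CPM of each transcript in each sample, with the 3 TCR alone samples at 10.9 to 11.9 and the 3 TCR+DMGV samples at 17.9 to 20.6 for Tnfaip3-201.

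Over all members, 31 transcripts were tested and 0 passed an adjusted p of 0.05 by edgeR, as did 0 of 38401 transcripts in all (0.0%). At an unadjusted p under 0.05 there was 1 of 31, Tnfaip3-201, against 3.22% of all transcripts, and DESeq2 was not run on transcripts. Groups did not overlap for 5 of 31, against 9.25% of all transcripts. These were Tnfaip3-201, Tnfaip3-204, Nfkb1-209 and Nfkbiz-205, higher in TCR+DMGV, and Tnfaip3-202, lower. By edgeR's test of uneven change among the transcripts of a gene, 0 of 7 members passed, against 1.39% of 7788 genes. No member had an unadjusted p under 0.05, against 4.34% of genes, and Nfkb1 had the lowest (edgeR unadjusted p = 0.110, adjusted p = 1.0). Nfkb1 passed (adjusted p = 0.0016) when TCR alone replicate 1 was left out.

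Other members showed a division that varied within a group while their gene level held steady. Nfkb1-209, annotated as a target of nonsense-mediated decay, was counted at 4486, 57 and 0 among the TCR alone samples and 5744, 19110 and 15301 among the TCR+DMGV samples. Its groups did not overlap, but the TCR alone samples themselves ranged from 0 to 4486, and the log2 fold change was 3.01 with an SE of 2.33. The protein-coding Nfkb1-201 took 19.7%, 6.68% and 25.7% of the gene total in TCR alone and 1.78%, 0.284% and 9.44% in TCR+DMGV. Those shares overlapped. Between replicates of a group, 28.9% of Nfkb1 counts on average sat on a different transcript, at percentile 87.9 of 5018 genes with a median of 5.59%.

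Relb also stood at 28.9% by that measure. Relb-201 took 1.31%, 35.5% and 1.66% of the Relb total in TCR alone and 1.93%, 32.5% and 2.33% in TCR+DMGV, so 1 sample of each group was high. Relb-210, annotated as a target of nonsense-mediated decay, took 26.7% in TCR+DMGV replicate 1 and 5.30% to 5.90% in the other 5. Nfkbiz-204 took 97.0%, 83.3% and 27.9% of the Nfkbiz total in TCR alone and 95.9%, 12.4% and 94.0% in TCR+DMGV, again low in 1 sample of each group. Tnfaip3 stood at 9.84%, Nfkbib at 7.39%, Nfkb2 at 4.47% and Nfkbia at 0.720%. Nfkb2 was divided between Nfkb2-201 (70.8% to 80.0%) and Nfkb2-202 in every sample, and Nfkbia-201 took at least 98.2% of its gene. Rel, Rela and Nfkbie each had 1 transcript in the table, where the annotation lists 1, 7 and 3. For Nfkb2 the table holds 2 and the annotation 8, so a division among unlisted transcripts cannot be read here.

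**Figure D4:**
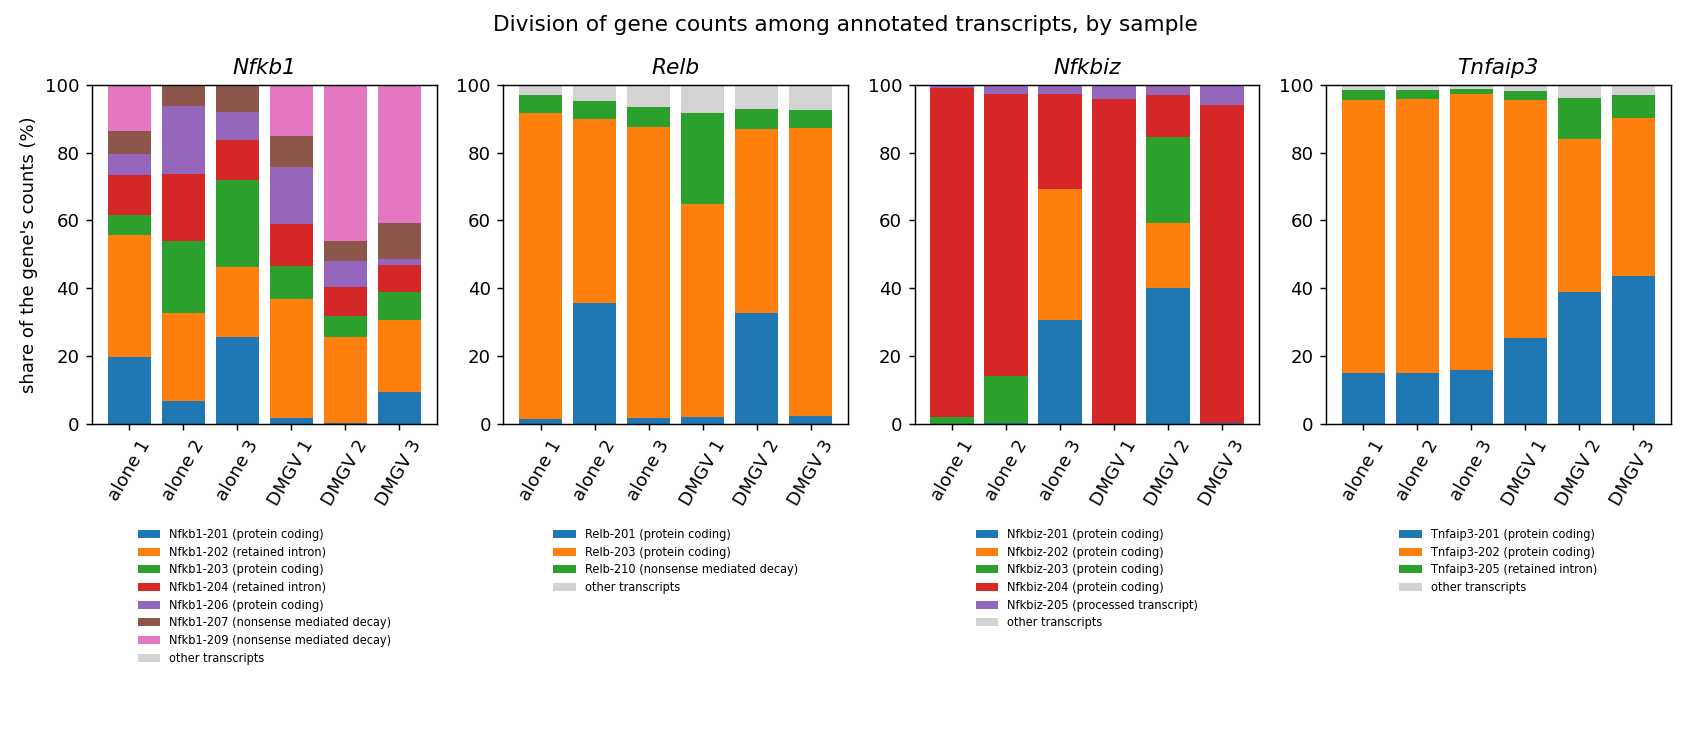
Share of each gene's counts (%) by annotated transcript in each of the 6 samples, for Nfkb1, Relb, Nfkbiz and Tnfaip3, with transcripts under 5% in all samples in gray. Nfkb1, Relb and Nfkbiz divide differently between samples of 1 group, while the 3 TCR alone samples of Tnfaip3 are alike (80.6% to 81.5% Tnfaip3-202).

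Among 18 receptor genes that feed the pathway, 17 were tested and 0 passed by edgeR (0 at an unadjusted p under 0.05, against 3.19% of all genes, and 0 by DESeq2). Higher values were seen in 11 and lower values in 6, against 50.6% of all genes higher, and their median was 0.06 (log2 fold change). Groups did not overlap for 2 of 17, against 8.86% of all genes. The smallest p-values belonged to the co-stimulatory receptor Cd27 (0.16, SE 0.08), Tnfrsf13c (-0.47, SE 0.27) and Tnfrsf1b (0.11, SE 0.07). Cd40 (-0.35, SE 0.23) and Tnfrsf9, which encodes 4-1BB (0.13, SE 0.09), came next. Cd40 and Tnfrsf13c, markers of B cells, stood at no more than 2.66 CPM in any sample.

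Of 28 genes between the TCR and the IκB kinase, all were tested and 0 passed by edgeR (2 at an unadjusted p under 0.05, against 3.19% of all genes, and 0 by DESeq2). There were 15 higher and 13 lower, against 50.6% of all genes higher, with a median of 0.0018 (log2 fold change), and groups did not overlap for 4 of 28, against 8.86% of all genes. Prkcq, which encodes PKC-theta, measured 147, 140 and 144 CPM in TCR alone and 165, 154 and 196 CPM in TCR+DMGV, without overlap (0.26, SE 0.10). Tab1, an adaptor of the kinase TAK1, measured 19.3, 17.4 and 18.8 CPM in TCR alone and 15.8, 15.3 and 14.5 CPM in TCR+DMGV, also without overlap (-0.28, SE 0.10). The adaptor Traf1 (0.22, SE 0.10), Map3k14, which encodes the noncanonical kinase NIK (-0.12, SE 0.08), and Ripk1 (-0.16, SE 0.11) came next.

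The kinase genes Ikbkb (-0.05, SE 0.07), Chuk (-0.05, SE 0.20) and Ikbkg (0.25, SE 0.19) and the adaptor gene Bcl10 (0.01, SE 0.10) had unadjusted p-values above 0.05. Malt1 measured 217, 217 and 144 CPM in TCR alone and 148, 200 and 177 CPM in TCR+DMGV (-0.14, SE 0.18). Chuk measured 80.9, 78.6 and 53.0 CPM in TCR alone and 54.0, 79.2 and 71.7 CPM in TCR+DMGV. Like Rel, both were lowest in the samples that stood apart.

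**Figure D5:**
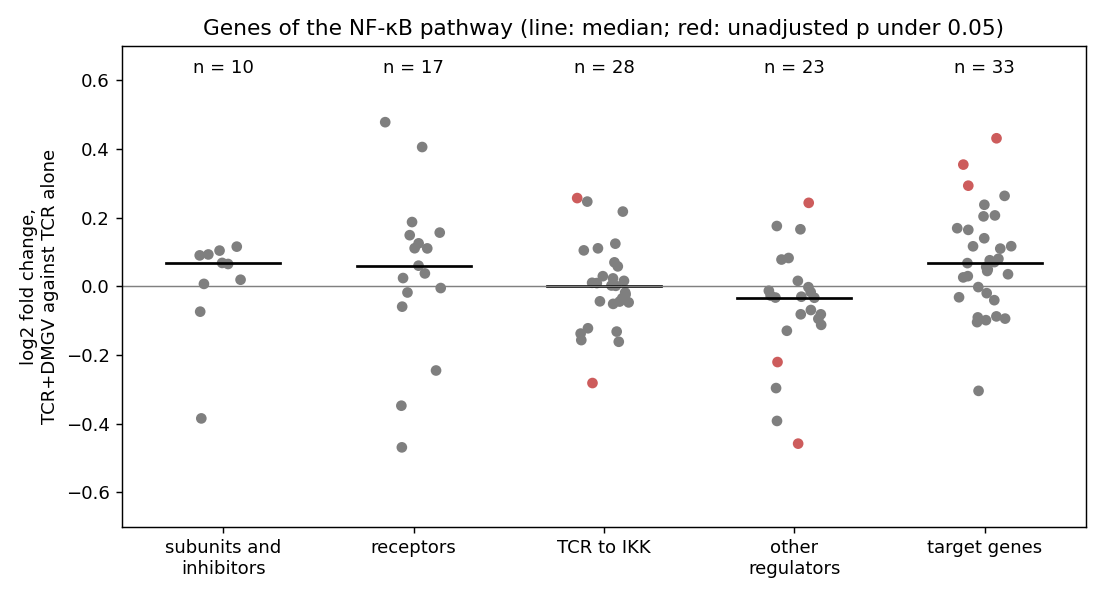
Log2 fold change of TCR+DMGV against TCR alone for each tested gene of 5 NF-κB lists, with the median as a black line and genes with an unadjusted p under 0.05 in red. All 5 medians lie between -0.033 and 0.067.

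Of 23 other regulators, all were tested and 0 passed by edgeR (3 at an unadjusted p under 0.05, against 3.19% of all genes, and 0 by DESeq2). There were 6 higher and 17 lower, against 50.6% of all genes higher, with a median of -0.03 (log2 fold change), and groups did not overlap for 4 of 23, against 8.86% of all genes. Otulin, a deubiquitinase of linear chains, measured 108, 105 and 108 CPM in TCR alone and 93.6, 89.8 and 91.4 CPM in TCR+DMGV, without overlap (-0.22, SE 0.07). The A20-binding genes Tnip2 and Tnip3 differed in direction. Tnip3 was lower in every TCR+DMGV sample (-0.46, SE 0.18) and Tnip2 higher in every one (0.24, SE 0.10). The ribonuclease gene Zc3h12a (0.17, SE 0.10), Pdlim2 (0.18, SE 0.12), and the atypical IκB genes Nfkbid (0.08, SE 0.11) and Bcl3 (0.02, SE 0.11) had unadjusted p-values above 0.05.

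Of 35 known target genes, 33 were tested and 0 passed by edgeR (3 at an unadjusted p under 0.05, against 3.19% of all genes, and 0 by DESeq2). There were 23 higher and 10 lower, against 50.6% of all genes higher, with a median of 0.07 (log2 fold change), and groups did not overlap for 5 of 33, against 8.86% of all genes. The chemokine gene Ccl3 measured 294, 264 and 296 CPM in TCR alone and 362, 375 and 414 CPM in TCR+DMGV, without overlap (0.43, SE 0.08). Tnf, the cytokine, measured 27.8, 29.7 and 29.1 CPM in TCR alone and 37.8, 33.1 and 39.9 CPM in TCR+DMGV, without overlap (0.35, SE 0.10). Ccl4 was also higher in every TCR+DMGV sample (0.29, SE 0.10), and Ier3 was lower in every one (-0.30, SE 0.13). Junb overlapped (0.17, SE 0.10). The edgeR adjusted p of Ccl3, Tnf, Ccl4, Ier3 and Junb was 0.999.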

How the data were processed

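RNA from 3 TCR alone and 3 TCR+DMGV samples was sequenced on the Illumina platform. The authors cleaned reads with SOAPnuke, aligned them with HISAT2 (2.0.4, per the submitters' processing notes) and calculated expression with StringTie. The authors deposited whole-number counts per gene and per transcript, and how whole counts were derived from that step and whether they used strand is not given in the sources used here. The authors also deposited FPKM values, which are normalized for length and depth. The notes name mm9, but 99.7% of gene identifiers matched GENCODE M21 (GRCm38), which was used for symbols, exons and coordinates.

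Genes were filtered with filterByExpr and tested on counts with edgeR 4.0.16 (TMM normalization, quasi-likelihood test, Benjamini-Hochberg adjustment, R 4.3.3), leaving 14786 genes and 38401 transcripts. CPM are TMM-normalized. Uneven transcripts were tested with diffSpliceDGE. Scripts were tested on simulated data. Alternatives were DESeq2 1.42.0, limma 3.58.1 on log2(FPKM + 1) and log2(FPKM + 0.1), other size factors and filters, summed transcript counts, a replicate block and left-out samples. FPKM were used for levels between genes, as deposited per gene and as the sum over a gene's transcripts, the latter chosen after seeing the data. No replicate pair agreed within sampling noise.

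The members and gene lists were chosen with earlier results of these data known. The named genes were all members, transcripts with at least 5% of a member's counts in any sample, a fixed set of pathway genes (Bcl3, Nfkbid, Chuk, Ikbkb, Ikbkg, Map3k14, Bcl10 and Malt1, with 1 more not reported here), and from each other list those past the threshold or else the 5 of smallest p. Likeness was the root mean square difference of log2 CPM deviations, for the 3 members of largest SD and their 3 nearest genes. Promoter windows were available for 7 of 10 members.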

Additional observations from a re-analysis of the deposited data

How the results depend on the processing

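Across 15 alternatives the 10 members gave 150 log2 fold changes, none of which crossed the threshold, and the lowest adjusted p was 0.161 (0.860 with all 6 samples). In 6 of 10 members the sign was the same in every setting. Nfkbie turned to -0.0081 on log2(FPKM + 0.1) and to -0.0076 on log2(FPKM + 1) with either filter, and ran from -0.049 to 0.064 with 1 sample left out. Rel ran from -0.077 to 0.11, Relb from -0.16 to 0.017 and Nfkbib from -0.0092 to 0.16 with 1 sample left out. Without both samples that stood apart Rel was at -0.015 and Relb at 0.043. Values for Tnfaip3-201, Tnfaip3-202 and Tnfaip3-205 under alternatives were chosen after seeing the data.

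Over all genes, 2 passed by edgeR, 14 by DESeq2, 1 with all genes with a count kept, 0 by limma on FPKM in each of 3 settings (510 to 765 at an unadjusted p under 0.05), 12 without both samples, and 0 to 5 with 1 sample left out. Over all transcripts 0 passed, and 0 to 1 with 1 left out. Members with uneven transcripts numbered 0, and 0 to 1 with 1 left out, the 1 being Nfkb1 without TCR alone replicate 1. Genes with uneven transcripts numbered 108 in all, 219 without both samples and 151 to 171 with 1 left out. The cause of these differences was not tested.

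Same-numbered samples correlated at -0.15, 0.12 and -0.15 in their deviations from the group means. The highest value of any pair across the groups was 0.31, between TCR alone replicate 3 and TCR+DMGV replicate 1, the samples that stood apart. With 3 samples a group, these values cannot settle whether the replicate numbers pair the samples. With the replicate block, 0 genes passed by edgeR (340 at an unadjusted p under 0.05), 41 genes had uneven transcripts, and no member passed. With 3 samples a group, the 95% intervals of the members limit what differences could be seen.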
